A study of Mus musculus with 2 samples.

Results

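Macula densa cells were studied as 662 nuclei of 13563 barcodes called as nuclei, 586 of 5442 in a cortex library and 76 of 8121 in a medulla library. A nucleus was a member when it held at least 5 counts of Slc12a1, at least 3 counts of Nos1 and Pappa2 together, at most 1 count of Tmem52b, at most 2 counts of Lrp2 and Cubn together and at most 5000 counts in all. Slc12a1 encodes NKCC2, the apical Na-K-2Cl cotransporter of the thick ascending limb (TAL). Nos1 and Pappa2 are known macula densa genes, Tmem52b is a TAL gene, and Lrp2 and Cubn encode the endocytic receptors of proximal tubule. The nuclei set beside them, called other TAL nuclei here, were all further barcodes with at least 10 counts of Slc12a1, at most 2 of Lrp2 and Cubn and at most 5000 in all, 3868 in cortex and 7649 in medulla. Because measured counts of these genes chose the members, their levels are given as a description, and so is every difference between macula densa and other TAL nuclei.

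The macula densa is a plaque of specialized epithelial cells at the end of the TAL, where the tubule touches the vascular pole of its own glomerulus. Its cells take up NaCl through NKCC2, and this uptake is the step by which they sense the salt delivered to the distal nephron. They answer with paracrine signals: ATP and adenosine for tubuloglomerular feedback on the afferent arteriole, prostaglandin E2 made through cyclooxygenase 2 (Ptgs2) for renin release, and nitric oxide made by neuronal nitric oxide synthase (Nos1), which opposes arteriolar constriction. Pappa2 encodes a secreted protease that frees insulin-like growth factors from their binding proteins.

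Both libraries came from kidneys of male B6 mice that the labels give the genotype WT and the age 12, with no unit. The mice were NKCC2-INTACT animals, in which tamoxifen activates an NKCC2-driven CreERT2 recombinase and TAL nuclei gain the green fluorescent envelope protein Sun1-sfGFP, and all nuclei studied were sorted for that fluorescence. Macula densa nuclei are in the sort because they express NKCC2, so no cell without that promoter's activity was intended to enter. Cortex was a superficial strip and medulla the tissue that remained, deep cortex included, so medullary members can come from juxtamedullary nephrons. There was 1 library per region, with 17000 nuclei loaded for each, and region and library cannot be told apart. Levels are counts summed over a class, scaled to 1000000 counts of that class (CPM), and intervals in parentheses are 95% intervals that cover counting error only. The members held 1149395 counts in cortex and 155259 in medulla, so the medullary values are the less precise. Their nuclei were shallower than other TAL nuclei, with medians of 1824.5 against 2365.5 counts in cortex and 1977.5 against 2408 in medulla. The 2 libraries shared 0 barcodes.

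Members made up 13.2% of TAL nuclei in cortex (12.2 to 14.2) and 0.984% in medulla (0.776 to 1.23). The median member held 26 Slc12a1 counts in cortex and 28 in medulla. The count of Nos1 ranged from 0 to 15 per nucleus in cortex with a median of 4, and that of Pappa2 from 0 to 38 with a median of 3. Both genes were present in 442 of 586 cortical members (75.4%) and in 56 of 76 medullary members (73.7%). Nos1 without Pappa2 was found in 120 cortical members and Pappa2 without Nos1 in 24. When nuclei were chosen by at least 2 Nos1 counts alone, 66.1% of the 590 cortical nuclei also held Pappa2 (62.1 to 69.9). When chosen by Pappa2 alone, 91.4% of 397 held Nos1 (88.2 to 93.996). In medulla these shares were 65.8% of 73 and 95.7% of 46 nuclei. Most Pappa2 nuclei thus held Nos1, and a smaller share of Nos1 nuclei held Pappa2, at a depth where a count of 0 does not show absence.

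At the limit on Nos1 and Pappa2, nuclei just outside had the marker Robo2 as well. The 83 cortical nuclei just inside, with 3 counts of Nos1 and Pappa2, had 5487 CPM of Robo2, a macula densa marker that the rule did not use. The 114 just outside, with 2 counts, had 5601 CPM. In medulla the 11 just inside had 4047 CPM of Robo2 and 385 CPM of Egf, and the 9 just outside more Robo2, 6898 CPM, and less Egf, 62.7 CPM. The 17 members with 1 Tmem52b count had 4868 CPM of Robo2, and the 5 nuclei kept out by 2 Tmem52b counts had 3992 CPM. At the upper limit on depth, the 18 members just inside 5000 counts had 7146 CPM of Egf, and the 6 nuclei just outside had 10439.5 CPM. In the clusters deposited with the data, for which the sources used here do not give the genes that entered, cluster 3 of the cortex library held 541 of the 586 members and cluster 12 of the medulla library 71 of the 76. These clusters also held 173 and 28 of the other TAL nuclei, whose mean Robo2 count per nucleus was 11.2 and 10.3. Members of the same clusters had 12.3 and 12.5, and other TAL nuclei outside them 0.572 and 0.0551. The other TAL nuclei thus included nuclei with macula densa genes, more of them in cortex, which lowers the ratios of those genes. Ratios with members inside and other TAL nuclei outside cluster 3 or 12, a setting chosen after seeing the data and called main-cluster ratios below, are therefore also given for the markers and, singly or as a range, for named genes that move by over 1.5 times in cortex. The clusters were made from these same libraries. Main-cluster ratios of genes that separate cluster 3 or 12 can therefore lie farther from 1 through that choice, and how much was not tested.

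All 5 macula densa markers that the rule did not use were higher in the members of both libraries. Members and marker list were chosen with earlier results of these data known. These levels therefore describe the members and do not test their name. Robo2 (ENSMUSG00000052516, chr16:73688727-75244270 of GRCm39), a receptor for Slit guidance proteins, stood at 6221 CPM (6077 to 6367) against 428 CPM (415 to 441), a ratio of 14.5 (13.99 to 15.1) in cortex. In medulla it stood at 6009 CPM (5629.9 to 6408) against 38.05 CPM (35.3 to 40.95), a ratio of 158 (143 to 174). Ndst4 (ENSMUSG00000027971, chr3:125197722-125522549), which sulfates heparan sulfate, had 1178 CPM against 58.3 CPM in cortex and 1429.9 CPM against 7.68 CPM in medulla. Its level in members was of like size in both libraries, while that in other TAL nuclei was several-fold lower in medulla. Ptgs2 (ENSMUSG00000032487, chr1:149975194-149983978), cyclooxygenase 2, had 126 counts in cortical members, 109.6 CPM (91.3 to 131) against 4.54 CPM (3.28 to 6.11), a ratio of 24.2 (16.97 to 35.01). In medulla it had 21 counts, 135 CPM (83.7 to 207) against 0.269 CPM (0.0872 to 0.627), a ratio of 503 (185 to 1709). Bmp3, a secreted member of the TGF-beta family, had 211 CPM against 16.7 CPM in cortex and 206 CPM against 1.18 CPM in medulla. Unc5d, a netrin receptor, had 544 CPM against 32.9 CPM and 560.4 CPM against 8.65 CPM. With members inside and other TAL nuclei outside the main cluster, the cortical ratios were 29.02 for Robo2, 60.1 for Ndst4, 160.3 for Ptgs2, 27.7 for Bmp3 and 43.4 for Unc5d. Beside other TAL nuclei without Nos1 and Pappa2, some cortical ratios were higher still, 321.6 for Ptgs2, 74.05 for Ndst4, 30.9 for Bmp3 and 30.6 for Robo2. Other settings gave lower cortical ratios. With members chosen by Pappa2 alone, Ptgs2 had 13.8, Ndst4 11.7 and Bmp3 8.39, and with at least 5 counts of Nos1 and Pappa2, Unc5d had 10.5. In medulla the main-cluster ratios were 282 (250.5 to 317) for Robo2, 352 (269.8 to 463) for Ndst4 and 2664 (426 to 110413) for Ptgs2, and that of Ptgs2 with Pappa2 alone was 145.

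The genes that chose the members were measured at 2020.2 CPM against 38.6 CPM for Nos1 (ENSMUSG00000029361, chr5:117918971-118096905) and 2479 CPM against 17.5 CPM for Pappa2 (ENSMUSG00000073530, chr1:158539297-158808060) in cortex. In medulla they stood at 2312 CPM against 3.65 CPM and 2074 CPM against 1.72 CPM. Their main-cluster ratios in cortex were 125 for Nos1 and 346 for Pappa2, and in medulla 1020.2 for Nos1. Per nucleus, Robo2 was found in 585 of 586 cortical members (99.8%), Ndst4 in 73.7%, Unc5d in 46.1%, Bmp3 in 28.8% and Ptgs2 in 15.2% (12.4 to 18.4). Cortical other TAL nuclei held Robo2 in 22.5%, Ndst4 in 6.31%, Unc5d in 4.68%, Bmp3 in 3.13% and Ptgs2 in 0.724%. Outside the main cluster they held Robo2 in 18.9% and Ndst4 in 3.14%. Proximal tubule barcodes, which should lack these genes, held Robo2 in 5 of 48 (10.4%), Unc5d in 1 and Ndst4, Bmp3 and Ptgs2 in 0 of 48, which allows a share of up to 6.25%, at a median depth of 4015.5 counts. After every nucleus had been thinned to 1000 counts, the shares in cortical members were 98.8% for Robo2, 59.2% for Ndst4, 32.9% for Unc5d, 17.6% for Bmp3 and 10.8% for Ptgs2. Free RNA, read from uncalled barcodes with 10 to 100 counts, held 653 CPM of Robo2 and 177 CPM of Nos1 in cortex.

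**Figure D1:**
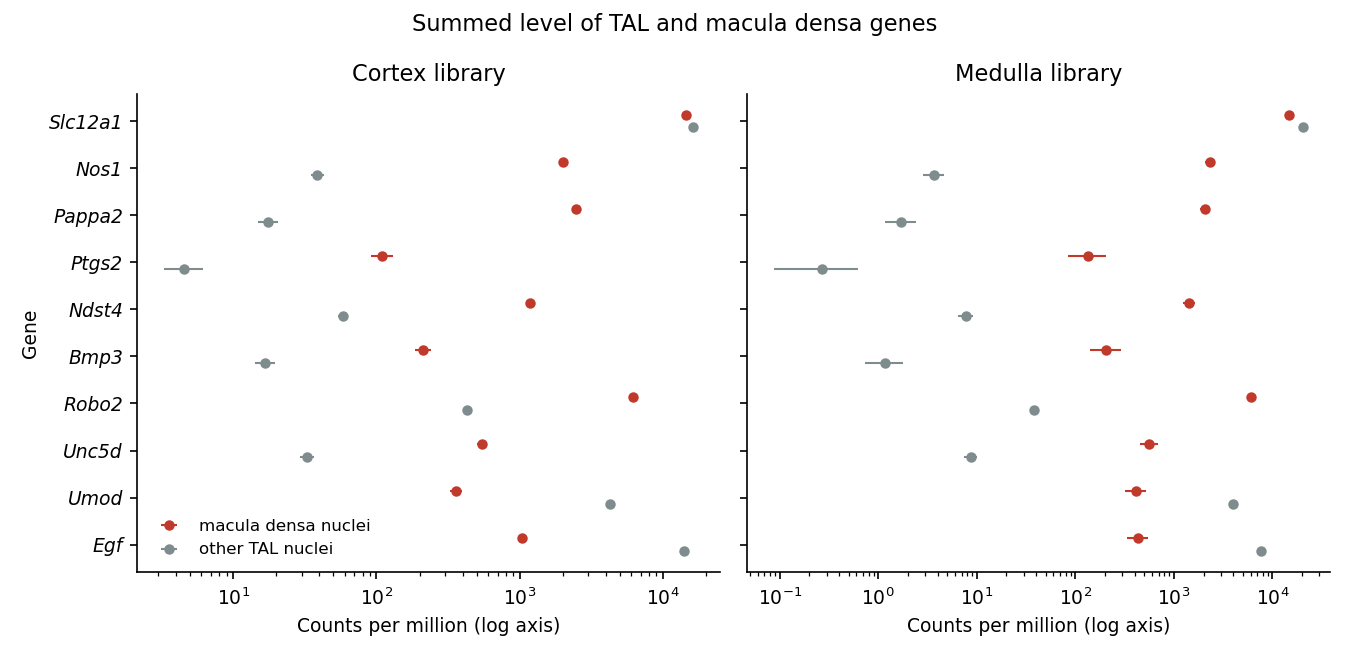
Summed level of 10 genes in macula densa nuclei and other TAL nuclei of each library, in CPM on a log axis, with 95% Poisson intervals. The 5 markers that the rule did not use lie to the right in macula densa nuclei of both libraries, Umod and Egf to the left, and Slc12a1 differs by less than 2-fold.

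Slc12a1 itself differed by less than 2-fold, at 14409 CPM against 16226 CPM in cortex, a ratio of 0.888 (0.874 to 0.902), and 14788 CPM against 20507 CPM in medulla, a ratio of 0.721 (0.692 to 0.751). Of 7190 genes with a mean of at least 20 CPM over both classes in cortex, 469 (6.52%) were at least 2-fold higher in macula densa and 556 (7.73%) at least 2-fold lower. In medulla, at a minimum of 100 CPM, 219 of 2189 (10.0%) were higher and 272 (12.4%) lower. These are the background shares for every list that follows. A gene is called higher or lower below only past 2-fold, and in cortex unless medulla is named. The median log2 ratio over all genes tested was 0.06 in cortex and 0.04 in medulla. The contrast is the one the rule drew, so nothing is read from these counts beyond their size.

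Most tested genes of the prostaglandin pathway were higher in macula densa. Of 16 genes, 9 were tested in cortex, 6 were higher and 1 lower, with a median log2 ratio of 1.23. Pla2g4a, the cytosolic phospholipase that frees arachidonic acid, had 691 CPM (644 to 741) against 159 CPM (152 to 168), a ratio of 4.33 (3.97 to 4.72) in cortex and 663 CPM against 81.7 CPM in medulla. Mgll, which cleaves a monoacylglycerol to arachidonic acid, had 274 CPM against 45.6 CPM, and Acsl4, which couples arachidonic acid to coenzyme A, had 495 CPM against 138 CPM. Tbxas1, thromboxane synthase, had 498 CPM against 212 CPM, and Abcc4, an exporter of prostaglandins, 376 CPM against 178 CPM. The gene that was lower was Slco2a1, the carrier that takes prostaglandins back up, at 15.7 CPM against 226 CPM, a ratio of 0.0692 (0.0409 to 0.11), with a main-cluster ratio of 0.0257. The synthase side was thinly measured: Ptges, the inducible prostaglandin E synthase, had 7 counts in cortical members and 0 in medullary ones, and cyclooxygenase 1 (Ptgs1) had 1 and 0. Hpgd, which degrades prostaglandins, had 0 counts in both, where 3 counts would be 2.61 CPM in cortex. Ptger3, the receptor EP3, was below the level of other TAL nuclei at 533 CPM against 936 CPM, short of 2-fold in cortex, and at 522 CPM against 1659 CPM in medulla.

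Beyond Nos1, the nitric oxide list had 7 of 14 genes tested in cortex, 3 higher (Nos1 among them) and 1 lower. Pde10a, a phosphodiesterase of cyclic nucleotides, had 2988 CPM (2889 to 3089) against 1102 CPM (1081 to 1124), a ratio of 2.71 (2.61 to 2.82) in cortex and 2782 CPM against 137 CPM in medulla. Gucy1a2, a subunit of the nitric oxide receptor guanylyl cyclase, had 55.7 CPM against 18.6 CPM. The other subunits, Gucy1a1 and Gucy1b1, had 0 counts in members of either library, and so had Nos2 and Nos3, the inducible and endothelial synthases. Pde9a, a cGMP phosphodiesterase, was lower at 20.01 CPM against 47.6 CPM. Of the ATP and adenosine list, 5 of 20 genes were tested, with 2 higher and 0 lower. These were Slc29a1, an adenosine carrier, at 122 CPM against 55.6 CPM, and Enpp1, an ecto-enzyme that cleaves ATP, at 308 CPM against 141 CPM. Nt5e, which makes adenosine outside the cell, had 4 counts, and the A1 receptor Adora1 7.

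In the IGF axis, 10 of 16 genes were tested in cortex, 3 higher and 3 lower. Besides Pappa2, its homologue Pappa was higher at 934 CPM (879 to 992) against 184 CPM (175 to 193), a ratio of 5.08 (4.70 to 5.48) and had 1076 CPM against 42.9 CPM in medulla. Igf2r, which clears IGF2, had 60.03 CPM against 28.7 CPM. Lower were the IGF receptor Igf1r (584 CPM against 1292 CPM), the adaptor Irs1 (52.2 CPM against 178 CPM) and the binding protein Igfbp7 (78.3 CPM against 256 CPM, with a main-cluster ratio of 0.19). The ligands were at the floor, Igf1 with 1 count and Igf2 with 0 in cortical members. Igfbp5, a binding protein that is a substrate of Pappa2, had 46.98 CPM against 39.8 CPM, a ratio of 1.18 whose interval of 0.871 to 1.57 held 1. Among 20 other secreted signals, 13 were tested, 2 higher and 3 lower. The higher ones were Bmp3 and Pamr1, a secreted protein with protease-like domains, at 854 CPM against 93.5 CPM in cortex and 741 CPM against 21.1 CPM in medulla. The lower ones were Bmp4 (6.96 CPM against 50.7 CPM), Fgf1 (135 CPM against 403 CPM) and Vegfa (69.6 CPM against 171 CPM). Sfrp1, a secreted Wnt inhibitor, was abundant in the members of both libraries, 1199 and 1043 CPM, against 756 CPM in other TAL nuclei of cortex and 113 CPM in those of medulla.

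Genes of axon guidance, which direct the shape and contacts of cell processes, included the markers Robo2 and Unc5d. Of 30 such genes, 21 were tested in cortex, 8 higher and 3 lower. Robo1 had 149.6 CPM against 53.2 CPM and Sema3a 33.9 CPM against 9.18 CPM. Srgap1, which acts below Robo receptors, had 994 CPM (937 to 1053) against 85.2 CPM (79.5 to 91.3), a ratio of 11.7 (10.6 to 12.8). Sema6a, a transmembrane semaphorin, had 451 CPM against 35.4 CPM, Slit3 226 CPM against 54.2 CPM, and the semaphorin co-receptor Nrp1 461 CPM against 151 CPM. Slit2, the ligand of Robo2, was high in both classes at 4149 CPM against 2979 CPM, a ratio of 1.39. Ntn4, a netrin, was lower at 63.5 CPM against 482 CPM. Among 22 genes of the cytoskeleton and of synapses, 20 were tested, 13 higher and 6 lower. Sncaip, which binds synuclein, had 364 CPM against 17.9 CPM, Khdrbs2 349 CPM against 25.1 CPM, Ksr2 472 CPM against 34.8 CPM, Auts2 976 CPM against 94.8 CPM, Nav1 235 CPM against 25.4 CPM and Prickle2 271 CPM against 31.6 CPM. Mapt, which encodes the microtubule protein tau, had 639 CPM against 318 CPM. The 6 lower genes, among them the membrane scaffolds Ank3 (1669 CPM against 6435 CPM), Ank2 (18.3 CPM against 98.1 CPM) and Shank2 (301 CPM against 1455 CPM), had ratios of 0.186 to 0.46. Main-cluster ratios were farther from 1, 19.4 for Srgap1, 19.7 for Sema6a, 0.0283 for Ntn4, 50.4 for Sncaip, 21.8 for Khdrbs2, 22.4 for Ksr2, 16.02 for Auts2, 13.3 for Prickle2 and 0.0991 for Ank2.

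**Figure D2:**
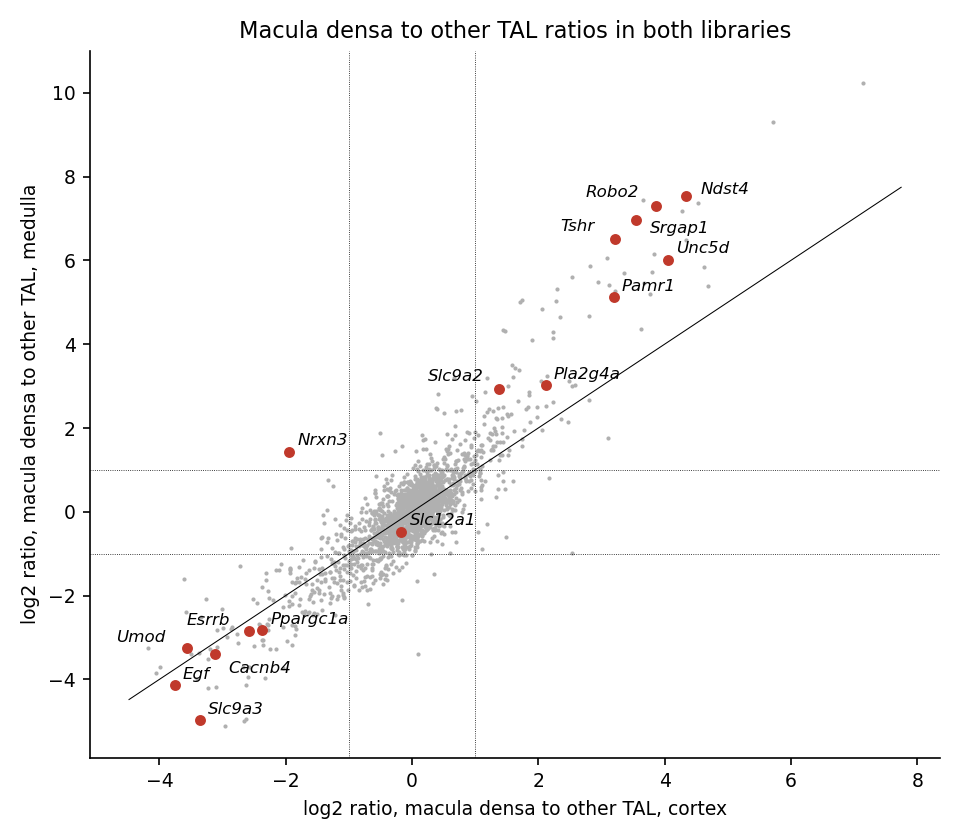
Each point is a gene past the filter in both libraries, with the log2 ratio of macula densa to other TAL nuclei in cortex on the x axis and in medulla on the y axis. The solid line marks equal ratios and dotted lines mark 2-fold. The labelled high ratios lie above the line, and Nrxn3 lies in the quadrant that is low in cortex and high in medulla.

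The secreted TAL proteins were far lower in macula densa, both uromodulin (Umod), an abundant urinary protein, and the EGF precursor (Egf). Over all members Egf had 1044 CPM (986 to 1105) against 14127 CPM (14052 to 14203), a ratio of 0.0739 (0.0698 to 0.0782) in cortex and 432 CPM against 7627 CPM in medulla. Umod had 361 CPM (327 to 398) against 4277 CPM (4236 to 4319), a ratio of 0.0844 (0.0765 to 0.093) in cortex and 412 CPM against 3949 CPM in medulla. Gp2, a relative of uromodulin, had 12.2 CPM against 152 CPM in cortex, with a main-cluster ratio of 0.0192 (0.00396 to 0.0563). Most of what was measured lay in few nuclei. The 26 cortical members in deposited cluster 10, with a median of 4079 counts, held 893 of the 1200 Egf counts and 274 of the 415 Umod counts. They held Nos1 at 694 CPM and Robo2 at 3224 CPM, between the members in cluster 3 (2197 and 6679 CPM) and the other TAL nuclei. The part of nuclei captured together in their level was not tested. In the 541 members of cluster 3, Egf was at 173 CPM and Umod at 83.1 CPM, against 14579.5 and 4412 CPM in other TAL nuclei outside it, ratios of 0.0119 and 0.0188. In medulla the main-cluster ratios were 0.0207 and 0.0218. At least 1 Egf count was found in 24.2% of these members (20.7 to 28.1) and in 41.7% of the 48 deeper proximal tubule barcodes (27.6 to 56.8). After thinning to 1000 counts the shares were 14.4% and 8.33%. Free RNA held 11084 CPM of Egf and 5169.7 CPM of Umod. With 5% of free RNA subtracted from every nucleus, the cortical ratio of Egf over all members was 0.0361. In medulla this setting moved the ratios further, to 0.00467 for Egf, and left no level of Umod or Slc9a3 in members.

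Among genes of salt transport in cortex, Slc12a1 and Kcnj1 differed by less than 2-fold, NHE2 was higher, and NHE3 and several further genes were lower. Of 18 genes, 15 were tested in cortex, 1 higher and 6 lower, with a median log2 ratio of -0.95. Kcnj1, the apical potassium channel ROMK, had 418 CPM against 552 CPM, a ratio of 0.756 (0.687 to 0.83), and 238 CPM against 677 CPM in medulla, a ratio of 0.352 (0.248 to 0.486). Bsnd, which encodes barttin, was lower at 30.5 CPM against 89.8 CPM. The sodium pump subunit Atp1b1 had a ratio of 0.513, and the pump regulator Fxyd2 one of 0.202. Slc12a3, the cotransporter of the distal convoluted tubule, was lower at 10.4 CPM against 129 CPM. Sodium-proton exchangers split by isoform. NHE2 (Slc9a2), the apical exchanger known in macula densa, had 481 CPM (442 to 523) against 186 CPM (177 to 195), a ratio of 2.59 (2.35 to 2.85). NHE3 (Slc9a3), the apical exchanger of TAL and proximal tubule, had 50.5 CPM (38.3 to 65.2) against 519 CPM (504 to 533), a ratio of 0.0973 (0.0737 to 0.126), and 45 of its 58 counts lay in the 26 members of cluster 10. In cluster 3 it had 8.01 CPM from 8 counts, a main-cluster ratio of 0.015. In medulla Slc9a2 had 374 CPM against 49.2 CPM and Slc9a3 25.8 CPM against 809 CPM, the latter from 4 counts, of which 1 lay in cluster 12.

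Potassium channels were higher and lower in equal number, with 10 of 14 tested, 3 higher and 3 lower in cortex. Kcnc2 and Kcnd3, voltage-gated channels, had 1386 CPM against 294 CPM and 264 CPM against 37.8 CPM, and Kcnk5, the background channel TASK-2, 93.1 CPM against 15.6 CPM. Kcnj10, the basolateral channel Kir4.1, had 8 counts in cortical members, 6.96 CPM against 85.1 CPM, and 3 in medullary ones. Its partner Kcnj16 was lower at 557 CPM against 1216 CPM, and Kcnq1 at 88.7 CPM against 286 CPM. Of the tight junction genes, 11 of 16 were tested, 2 higher and 4 lower. Cldn10, the monovalent cation claudin, had 62.6 CPM against 116 CPM, Cldn16 40.9 CPM against 163 CPM and Cldn19, its partner for calcium and magnesium, 12.2 CPM against 163 CPM. Cldn10 was found without Cldn16 in 58 of 586 cortical members, Cldn16 without Cldn10 in 35, both in 5 and neither in 488 (83.3%). The main-cluster ratios, from 2 and 1 counts in members, were 0.0228 (0.00276 to 0.0826) for Kcnj10 and 0.00596 (0.000151 to 0.0333) for Cldn19. The 3 medullary Kcnj10 counts lay outside cluster 12. Proximal tubule barcodes held Cldn10 in 85.4%, which that segment expresses, and Cldn16 in 0 of 48. Cldn8 was higher in macula densa (30.5 CPM against 12.6 CPM), and lower were Ocln (58.3 CPM against 162 CPM) and Cgnl1 (719 CPM against 2491 CPM).

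Calcium handling differed in both directions, with 16 of 20 genes tested, 7 higher and 5 lower. Itpr3, an IP3 receptor, had 72.2 CPM against 6.96 CPM, whereas Itpr2 had 26.1 CPM against 249.9 CPM and the common Itpr1 1159 CPM against 917 CPM. Cacna1d, an L-type calcium channel, had 1244 CPM against 457 CPM, while the channel subunits Cacnb4 (131 CPM against 1136 CPM) and Cacnb2 (57.4 CPM against 294 CPM) were lower. Of the 151 Cacnb4 counts, 7 lay in the 541 members of cluster 3 (7.01 CPM). Main-cluster ratios were 0.00598 for Cacnb4, 0.126 for Cacnb2, 0.0585 for Itpr2, 11.6 for Car8 and 0.0178 for Ryr2. Car8, which binds IP3 receptors, had 292 CPM against 38.1 CPM, the kinase Camk2d 2295 CPM against 668 CPM, and the plasma membrane pump Atp2b4 347 CPM against 125 CPM. Ryr2, a ryanodine receptor, had 13.1 CPM against 218 CPM in cortex and 0 counts in medullary members, where 3 counts would be 19.3 CPM, against 182 CPM in other TAL nuclei.

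Of 25 hormone and nutrient receptors, 12 were tested, 2 higher and 3 lower. Tshr, the thyrotropin receptor, had 1190.2 CPM (1128 to 1255) against 129 CPM (122 to 136), a ratio of 9.24 (8.55 to 9.99) in cortex and 1153 CPM against 12.7 CPM in medulla. It was found in 438 of 586 cortical members (74.7%), in 14.9% of cortical other TAL nuclei and in 1 of 48 proximal tubule barcodes. Calcr, the calcitonin receptor, had 82.7 CPM against 15.3 CPM from 95 counts. Lower were the calcium-sensing receptor Casr (459 CPM against 1213 CPM), the parathyroid hormone receptor Pth1r (165 CPM against 416 CPM) and Egfr (20.01 CPM against 104 CPM, with a main-cluster ratio of 0.0931). In medulla Casr had 567 CPM against 594 CPM and Pth1r 148 CPM against 87.5 CPM, and the level in other TAL nuclei, not that in members, differed most between the libraries. Avpr2, the vasopressin receptor of the TAL, had 1 count in cortical members. In the WNK pathway, which phosphorylates NKCC2, 8 of 11 genes were tested, 1 higher and 2 lower. Klhl3, the adaptor that marks WNK kinases for degradation, had 363 CPM against 151 CPM. Wnk4 had 313 CPM against 548 CPM and Stk39, the kinase SPAK, 1024 CPM against 971 CPM. The lower genes were Nedd4l, a ubiquitin ligase (575 CPM against 1193 CPM), and Sgk2, a kinase (65.3 CPM against 171 CPM).

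Most tested genes of energy metabolism were lower in macula densa. Of 10 energy regulators 8 were tested, 0 higher and 5 lower, with a median log2 ratio of -1.39. Ppargc1a, the coactivator PGC-1alpha that drives mitochondrial genes, had 198 CPM (173 to 226) against 1025 CPM (1004 to 1045), a ratio of 0.194 (0.169 to 0.221) in cortex and 271 CPM against 1913 CPM in medulla. Esrrb, an estrogen-related receptor that binds genes of oxidative metabolism, had 114 CPM against 684 CPM in cortex and 135 CPM against 975 CPM in medulla. The main-cluster ratios were 0.125 for Ppargc1a and 0.0669 for Esrrb in cortex, and 0.0524 for Ppargc1a and 0.0807 for Esrrb in medulla. The relative of Esrrb, Esrrg, went the other way without reaching 2-fold, at 6103 CPM against 3895 CPM, a ratio of 1.57 (1.53 to 1.61). Of 24 mitochondrial enzymes 23 were tested, 0 higher and 15 lower, with a median log2 ratio of -1.17. In medulla 11 were tested, 0 higher and 7 lower. Idh2, of the citric acid cycle, had 136 CPM against 414 CPM, Atp5b, of ATP synthase, 121 CPM against 276 CPM, and Sdha, of complex II, 199 CPM against 243 CPM, the ratio nearest to 1 among those tested (0.819, 0.712 to 0.939). Glycolytic genes were lower as well, 8 of 10 tested, led by Hk1 (88.7 CPM against 329 CPM). With members inside and other TAL nuclei outside the main cluster, 16 mitochondrial enzymes, 8 glycolytic genes and 5 regulators were lower and 0 higher. Counts of mitochondrial genes, which are residual in nuclei, were also a smaller share, a median of 0.0541% against 0.0998% per nucleus in cortex, and members were shallower. Their part in these ratios was not tested.

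**Figure D3:**
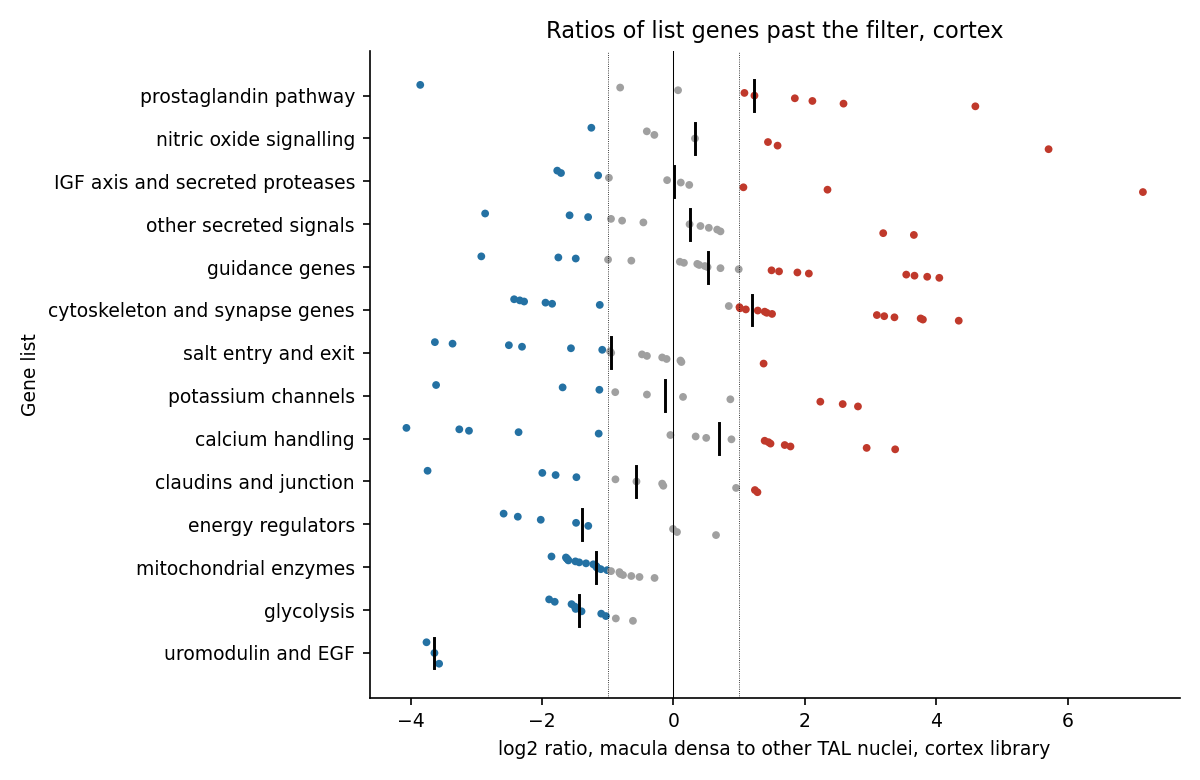
Log2 ratio of macula densa to other TAL nuclei in cortex for the list genes past the filter, one point per gene, with the list median as a black bar and dotted lines at 2-fold. Red points are at least 2-fold higher and blue points at least 2-fold lower. All tested mitochondrial enzymes and glycolytic genes lie left of 0, while the prostaglandin and cytoskeleton lists have medians right of 1.

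Transcription factors of nephron segments differed in both directions. Of 46 factors, 33 were tested in cortex, 11 higher and 7 lower. Of the 5 Hoxc genes in the list, 4 were tested and 3 were higher, and Hoxc6 had a ratio of 1.85. Of the 4 Iroquois genes 2 were tested, and both were higher. Hoxc4, Hoxc8 and Hoxc9, which lie in the same gene cluster, had ratios of 3.06, 3.48 and 3.33. The Iroquois factors Irx1 and Irx2 had 145 CPM against 58.4 CPM and 217 CPM against 89.1 CPM, Tox3 463 CPM against 143 CPM and Pbx3 897 CPM against 268 CPM. Reads of neighbouring Hox genes can be hard to separate where their transcripts overlap. Lower were Sim2 (11.3 CPM against 117 CPM), Sox5 (106 CPM against 565 CPM), Zfpm2 (31.3 CPM against 189 CPM), Hes1 (61.8 CPM against 224 CPM) and Prox1 (6.09 CPM against 34.5 CPM). Their main-cluster ratios were 0.0334 for Sim2, 0.105 for Sox5 and 0.0772 for Zfpm2, and 0.0846 (0.0174 to 0.25) for Prox1 from 3 counts. Tfap2b, a factor of the distal nephron, differed by less than 2-fold, with a ratio of 1.08. Of 8 osmolyte genes, 6 were tested, 1 higher and 2 lower. The taurine carrier Slc6a6 was higher at 38.3 CPM against 14.6 CPM. Both lower genes are inositol carriers, Slc5a3 (233 CPM against 1112 CPM) and Slc2a13 (45.2 CPM against 363 CPM), while Nfat5, the factor that answers hypertonicity, had 652 CPM against 631 CPM. In heparan sulfate genes, 13 of 23 tested, the higher ones were Ndst4 and Gpc5 (191 CPM against 67.8 CPM, but below other TAL nuclei in medulla, a ratio of 0.664) and the lower ones Ndst1, the widely expressed relative of Ndst4 (47.9 CPM against 117 CPM), Hs3st3a1 (7.83 CPM against 36.2 CPM) and Sulf2 (8.70 CPM against 95.04 CPM). Main-cluster ratios were 0.14 for Slc5a3, 0.0536 for Slc2a13 and 0.0511 for Sulf2, and 0.0539 (0.00651 to 0.196) for Hs3st3a1 from 2 counts. Of 21 immediate early and stress genes, 5 were tested and 3 were higher, Mt1 (325 CPM against 153 CPM), Mt2 (237 CPM against 82.3 CPM) and Jun (52.2 CPM against 18.99 CPM). In medulla Jun had 2 counts in members, a ratio of 0.458 (0.0554 to 1.66). The injury genes Havcr1 and Lcn2 had 0 counts in members of both libraries.

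By the naming rule, which leaves out the genes that chose the members, the 20 genes with the highest lower bounds in cortex were led by Ptprz1, a receptor phosphatase, at 158 CPM (136 to 183) against 4.11 CPM (2.93 to 5.62), a ratio of 38.5 (27.1 to 55.9). Luzp2 had 325 CPM against 12.6 CPM, Adarb2, a relative of RNA editing enzymes, 429.8 CPM against 17.4 CPM, and Itga4, an integrin, 217 CPM against 9.39 CPM. Etv1, a transcription factor, had 123 CPM against 5.49 CPM, Ntrk3, a neurotrophin receptor, 251 CPM against 12.6 CPM, Frem1, of the extracellular matrix, 183 CPM against 8.86 CPM, and Slc4a10, a bicarbonate transporter, 118 CPM against 6.01 CPM. Vash2, Prr16, Sh3rf3, Ccdc80, Cntnap4, Gm21154 and C130050O18Rik had ratios of 19.4 to 27.1. The remaining members of the 20, Ndst4, Ptgs2, Sncaip, Unc5d and Robo2, are described above. All 20 main-cluster ratios were higher, from 26.4 for Cntnap4 to 160.3 for Ptgs2, with 71.9 (45.99 to 118) for Ptprz1, 58.6 for Luzp2, 41.2 for Adarb2 and 67.2 for Itga4. The 15 genes with the lowest upper bounds were led by Abca13, an ABC transporter, at 161 CPM (139 to 186) against 2543 CPM (2511 to 2575), a ratio of 0.0633 (0.0545 to 0.0732). Nuak2, a kinase, had 13.1 CPM against 236 CPM, Tmem207 12.2 CPM against 203 CPM, Col5a2, a collagen chain, 73.1 CPM against 893 CPM and Rgs6, a regulator of G-protein signalling, 226 CPM against 1923 CPM. Pex5l, Rtl4, Tarm1 and Gm47708 had ratios of 0.0407 to 0.107, and Egf, Umod, Ryr2, Slco2a1, Cldn19 and Slc9a3 made up the rest. Of the 185 Abca13 counts, 149 lay in the 26 members of cluster 10, and cluster 3 members had 29.05 CPM. Members outside cluster 3 also carried most of the level of Rgs6, Nuak2 and Tmem207. Cluster 3 members had Rgs6 at 42.1 CPM, a main-cluster ratio of 0.0212, and 1 count each of Nuak2 and Tmem207, ratios of 0.0041 (0.000104 to 0.0229) and 0.00479 (0.000121 to 0.0267). The other main-cluster ratios of the 15 were also lower, at most 0.0533 for Col5a2, with 0 counts of Gm47708 in cluster 3.

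To compare macula densa with kinds of TAL nuclei, members were set beside 614 cortical other TAL nuclei with Cldn10 but no Cldn16 or Kcnj10 and 917 with Cldn16 but no Cldn10. Between these classes, 62 of 6978 genes (0.889%) were at least 2-fold higher in the Cldn10 nuclei and 87 (1.25%) in the Cldn16 nuclei, leaving out the genes of the choice. The level in macula densa often lay outside the range of both. Of the 62, its level was below both classes in 30, above both in 17 and between them in 15. Of the 15, 10 were nearer to the Cldn10 nuclei and 5 to the Cldn16 nuclei, against 8 and 9 of 17 in the main cluster. Medulla had 2 such genes between, with 0 nearer to the Cldn10 nuclei and 2 to the Cldn16 nuclei. Of the 87, it was below both in 47, above both in 11 and between them in 29. Of the 29, 18 were nearer to the Cldn10 nuclei and 11 to the Cldn16 nuclei, against 13 and 11 in the main cluster. In medulla, with 9 between, 3 and 6 were, and 1 and 7 in the main cluster, so no one class was the nearer in every setting. Kcnma1, the BK potassium channel, had 544 CPM in macula densa, 476 CPM in the Cldn10 nuclei and 192 CPM in the Cldn16 nuclei. Ptger3 had 533 CPM in macula densa, 1493 CPM in the Cldn10 nuclei and 544 CPM in the Cldn16 nuclei. Wnk1 had 1337 CPM in macula densa, 751 CPM in the Cldn10 nuclei and 2431 CPM in the Cldn16 nuclei, and Cadps2, of vesicle release, 224 CPM in macula densa, 60.9 CPM in the Cldn10 nuclei and 378 CPM in the Cldn16 nuclei. The gene lists that the study drew up for its alpha, beta and gamma types were chosen on these same libraries. Of 15 alpha genes all were tested, 0 higher and 9 lower than in other TAL nuclei of cortex. Of 15 beta genes 0 were higher and 11 lower in cortex, where one of the 11, Tmem52b, was limited by the rule itself, and of 15 gamma genes 11 were tested, 2 higher and 7 lower. In medulla the beta genes did not lie to one side, with 10 tested, 3 higher and 3 lower and a median log2 ratio of 0.59, against -2.00 in cortex. Of 13 alpha genes tested in medulla 1 was higher and 10 lower, and of 9 gamma genes 0 were higher and 6 lower. The gamma genes that were higher in cortex were Gpc5 and Enpp2 (268 CPM against 125 CPM), which makes lysophosphatidic acid. In medulla both were below other TAL nuclei, Gpc5 at 522 CPM against 786 CPM and Enpp2 at 289.8 CPM against 532 CPM, short of 2-fold. Nrxn3, a beta gene, had 326 CPM against 1251 CPM in cortex and 432 CPM against 159 CPM in medulla. Its levels in members, 326 CPM (294 to 361) and 432 CPM (334 to 548), were nearer to each other than those of the other TAL nuclei. The difference between the libraries was not tested.

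Between cortical and medullary members, a contrast the rule did not use, few genes differed by 2-fold. Of 2172 genes with a mean of at least 100 CPM, 9 (0.414%) were at least 2-fold higher in cortex and 7 (0.322%) at least 2-fold lower. For the same genes in other TAL nuclei, 140 (6.45%) were higher and 25 (1.15%) lower. The rule used counts of Nos1 and Pappa2 to divide members from other TAL nuclei in both libraries, so ratios of these 2 genes are a description only. Ratios of cortex to medulla in members were 1.04 (0.967 to 1.11) for Robo2, 0.824 (0.714 to 0.954) for Ndst4, 0.874 (0.781 to 0.979) for Nos1, 1.20 (1.06 to 1.35) for Pappa2 and 1.03 (0.883 to 1.21) for Tshr. In other TAL nuclei the same ratios were 11.2 (10.4 to 12.2), 7.59 (6.31 to 9.19), 10.6 (8.14 to 13.9), 10.2 (6.94 to 15.4) and 10.2 (8.83 to 11.7). The other TAL nuclei differ in makeup between the libraries, with 614 Cldn10 and 917 Cldn16 nuclei in cortex and 2222 and 758 in medulla. Nuclei of the main clusters, which hold macula densa genes, were 173 of the 3868 cortical and 28 of the 7649 medullary ones. Free RNA differed too. Its cortical level of Robo2 was 653 CPM against a medullary 79.3 CPM, and that of Ndst4 133 against 17.0 CPM. For Nos1 these levels were 177 against 13.2 CPM, and for Pappa2 202 against 27.4 CPM. How much such nuclei and free RNA add to the ratios in other TAL nuclei was not tested.

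The 5 genes with the highest lower bounds in cortical members were Egf, Fkbp15, mt-Co3, Phf20l1 and Hoxc8. Egf had 1200 counts in cortex and 67 in medulla, a ratio of 2.42 (1.89 to 3.14), but 1.10 (0.702 to 1.80) in the main clusters. Fkbp15, an endosomal protein, had a ratio of 2.60 (1.34 to 5.77), with 9 counts in medulla. Phf20l1, a reader of histone methylation, had 2.07 (1.31 to 3.43), but 1.96 (1.23 to 3.31) in the main clusters, short of 2-fold. The mitochondrial gene mt-Co3 had 2.25 (1.29 to 4.30), against 2.05 (1.94 to 2.16) in other TAL nuclei. Hoxc8 had 2.12 (1.31 to 3.62), against 1.62 (1.46 to 1.80). The 5 lowest were Sgcz, Kcnd2, Gpc5, Cacnb4 and Synrg. Sgcz, a sarcoglycan, had 0.138 (0.0918 to 0.207), but 40 of its 51 medullary counts lay in 3 nuclei and the main clusters gave 0.512 (0.201 to 1.54). Gpc5, a glypican, had 0.365 (0.282 to 0.477) and 0.531 (0.388 to 0.738) in the main clusters, against 0.0863 (0.0797 to 0.0934) in other TAL nuclei. Cacnb4 had 0.434 (0.311 to 0.616), with 35 of 47 medullary counts in 3 nuclei, and 0.244 (0.0621 to 1.14) in the main clusters. Kcnd2, a voltage-gated potassium channel, had 0.268 (0.194 to 0.374) and 0.276 (0.194 to 0.398) in the main clusters, the opposite side of 1 from other TAL nuclei, where it was 2.16 (1.76 to 2.67). Its 58 medullary counts lay in 10 of 76 nuclei, with 20 in a single nucleus, and the 115 cortical counts in 45 of 586. Synrg, of vesicle traffic, had 0.482 (0.315 to 0.762).

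For further genes of macula densa signals, the interval of the cortex to medulla ratio held 1. The ratio was 0.81 (0.508 to 1.35) for Ptgs2, 1.02 (0.705 to 1.53) for Bmp3, 0.97 (0.774 to 1.23) for Unc5d, 1.04 (0.847 to 1.29) for Pla2g4a and 1.29 (0.981 to 1.72) for Slc9a2. In the main clusters Slc9a2 had 1.33 (1.00 to 1.80), an interval whose lower bound was just above 1. With 21 medullary counts, a difference in Ptgs2 of less than the width of its interval was not detectable. Slc12a1 had 0.974 (0.933 to 1.02) in members and 0.791 (0.787 to 0.796) in other TAL nuclei. Tmtc1, an endoplasmic reticulum protein, was below 1 in members at 0.585 (0.417 to 0.84) and above 1 in other TAL nuclei at 5.81 (4.82 to 7.04). It was named after its values were seen.

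**Figure D4:**
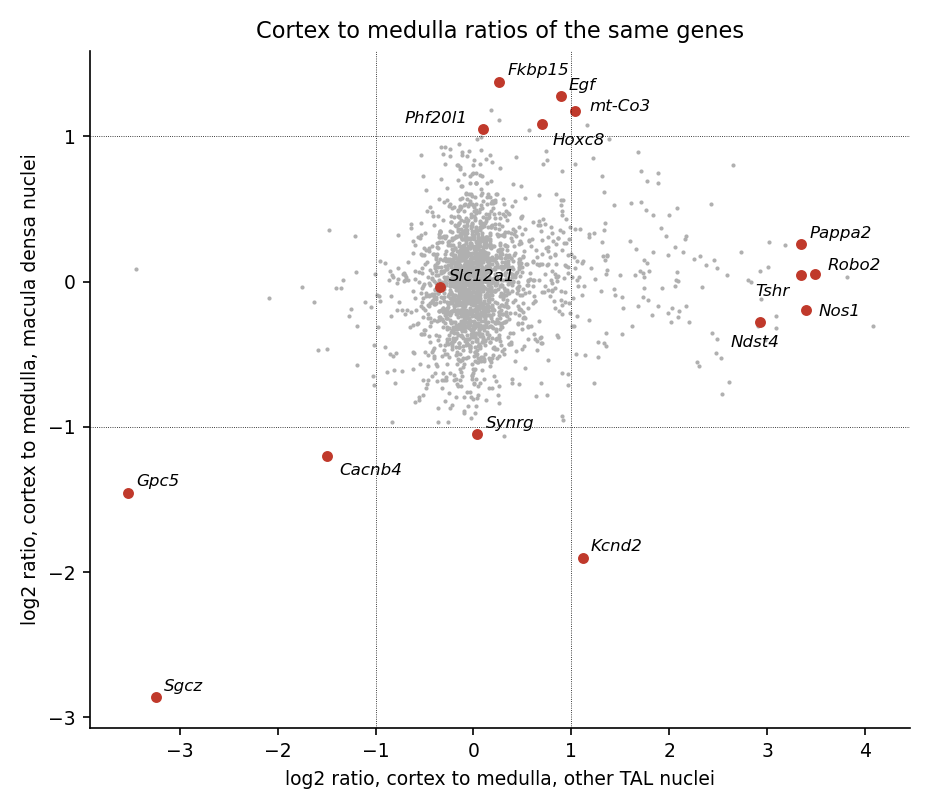
Log2 ratio of cortex to medulla for 2172 genes, in other TAL nuclei on the x axis and in macula densa nuclei on the y axis, with dotted lines at 2-fold. Most genes that differ between the regions in other TAL nuclei lie within 2-fold in macula densa, and Kcnd2 lies on opposite sides of 0.

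Members were also described by their Pappa2 count. The rule used that count, so that members without Pappa2 entered through at least 3 Nos1 counts, and the values are a description only. Cortical members were divided into 120 with 0, 247 with 1 to 4 and 219 with at least 5 Pappa2 counts, whose median depths were 1811, 1788 and 1864 counts. Of 2184 genes, 17 (0.778%) were at least 2-fold higher in the last group than in the first and 11 (0.504%) at least 2-fold lower. The genes named here were chosen after their values were seen. Ptprz1 had 42.4 CPM (20.3 to 77.9) at 0, 119 CPM at 1 to 4 and 265 CPM (219 to 318) at 5 or more, a ratio of 6.25 (3.28 to 13.4). Frem1 had 50.8, 190.0 and 246 CPM, and Gpc5 72.01, 207 and 237 CPM. These genes were lowest in members without a Pappa2 count. Sema6a had a ratio of 2.56 (1.92 to 3.46), Adarb2 2.72 (1.94 to 3.88), Ctnnd2 2.48 (1.72 to 3.66), Luzp2 2.28 (1.67 to 3.16), Nox4, an NADPH oxidase, 2.13 (1.59 to 2.89) and Pde10a 1.87 (1.69 to 2.07). Lower with more Pappa2 were Col5a2 at 0.388 (0.223 to 0.668), Manba, a lysosomal enzyme, at 0.402 (0.25 to 0.64) and Frmd4b at 0.489 (0.357 to 0.668). The TAL gene Umod was also below 1, at 0.515 (0.392 to 0.676) over all members and 0.455 (0.236 to 0.875) in the main cluster, and Slc12a1 at 0.847 (0.813 to 0.883). The markers that the rule did not use differed by less than 2-fold, Ptgs2 at 1.16 (0.686 to 2.02), Ndst4 at 1.09 (0.933 to 1.27), Robo2 at 1.19 (1.12 to 1.27) and Unc5d at 1.07 (0.86 to 1.35), while Bmp3 had 0.684 (0.484 to 0.971). Nos1 had 0.941 (0.845 to 1.05), but the rule required at least 3 Nos1 counts in members without Pappa2, so no likeness is read from it. In the main cluster of cortex the ratios were 6.35 (3.23 to 14.2) for Ptprz1, 4.78 (2.57 to 9.87) for Frem1 and 2.83 (1.68 to 5.06) for Gpc5. In medulla, 58 members with Pappa2 and 18 without gave 2.66 (0.637 to 23.6) for Ptprz1, 1.77 (0.681 to 5.85) for Frem1 and 2.36 (1.18 to 5.38) for Gpc5. Intervals of Ptprz1 and Frem1 held 1, as did those of Ctnnd2 and Col5a2 below. Adarb2 had 2.25 (1.16 to 4.87), Luzp2 3.84 (1.22 to 19.4), Nox4 2.66 (1.22 to 6.88), Pde10a 1.58 (1.22 to 2.08), Ctnnd2 1.54 (0.581 to 5.12), Col5a2 0.296 (0.055 to 1.59) and Umod 0.564 (0.329 to 0.992). Sema6a at 0.956 (0.547 to 1.76), Manba at 1.48 (0.315 to 13.9) and Frmd4b at 0.887 (0.504 to 1.64) had medullary intervals that held 1.

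**Figure D5:**
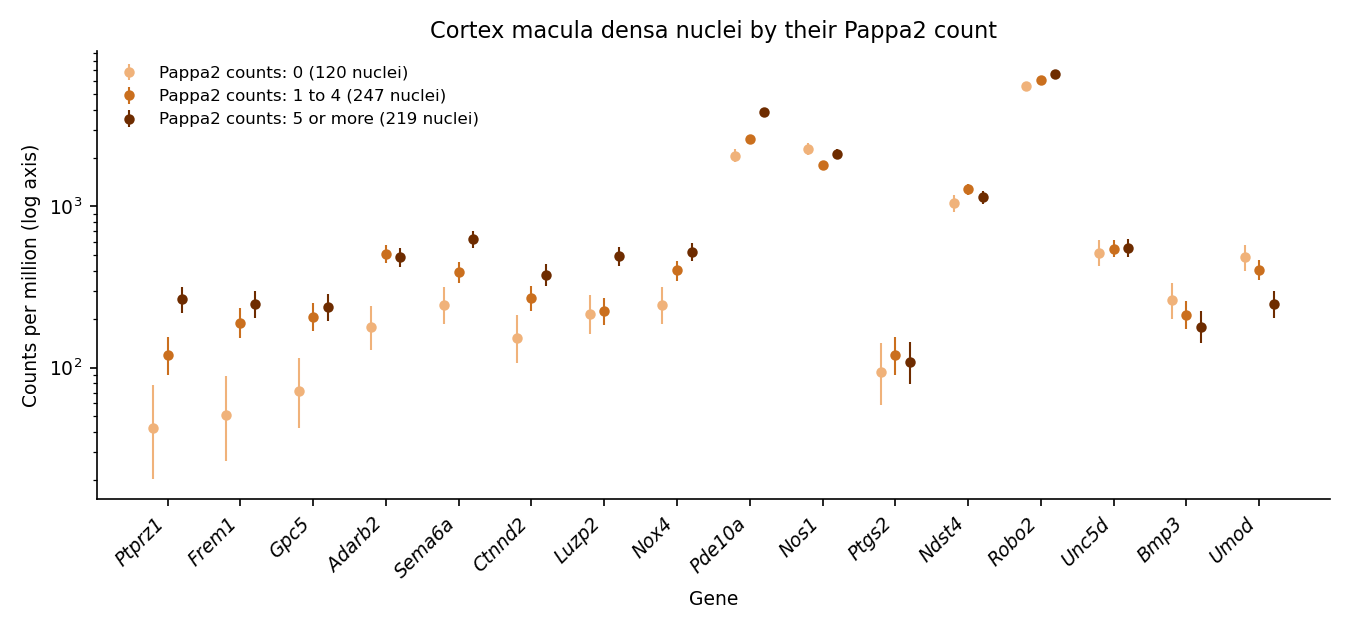
Summed level in CPM on a log axis, with 95% Poisson intervals, of 16 genes in cortical macula densa nuclei with 0, 1 to 4 and at least 5 Pappa2 counts. Ptprz1, Frem1, Gpc5 and Sema6a are lowest in nuclei without Pappa2, and Ptgs2 and Unc5d are at like levels in all 3 groups. The level of Nos1 in nuclei without Pappa2 depends on the rule, which required at least 3 Nos1 counts there.

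Defining markers of the cells that adjoin the macula densa were at or near 0. In cortical members, the juxtaglomerular, mesangial and stromal list had 9 of 12 genes with a count, 31.3 CPM in all against 38.3 CPM in other TAL nuclei, led by Gata3. Renin (Ren1) had 2 counts in cortex and 0 in medulla, and Pdgfrb, Tagln and Dcn had 0. The podocyte gene Nphs1 had 0 counts in members of both libraries. The podocyte and parietal list summed to 397 CPM with 7 of 10 genes counted, of which Pax8, a factor of the whole tubule, gave 228 CPM. Ncam1, in that list as a parietal gene, had 156 CPM against 26.6 CPM. Proximal tubule markers, with 12 of 12 counted, summed to 286 CPM against 763 CPM, led by Kap at 138 CPM, and the list holds Lrp2 and Cubn, which the rule limited. Distal convoluted tubule markers, 9 of 10, summed to 3446 CPM against 16198 CPM, led by Sgms2 at 1308 CPM in members, with Pvalb at 0. Egf, which TAL cells express, is in that list and gave 1044 CPM of the sum in members and 14127 CPM of that in other TAL nuclei, and without it the sum was higher in members. The principal and intercalated cell list, 9 of 10, summed to 18.3 CPM against 52.5 CPM, with Foxi1 at 0 and 2 counts of Aqp2. Endothelial markers, 10 of 10, summed to 82.7 CPM against 178 CPM, led by Flt1. Thin limb markers, 6 of 10, summed to 49.6 CPM against 176 CPM, led by Cdh13. Immune markers, 7 of 10, summed to 138 CPM against 119 CPM, of which Skap1 gave 103 CPM, with Csf1r, C1qa and Lyz2 at 0. Of these lists, the filter passed none of the principal and intercalated or the juxtaglomerular, mesangial and stromal lists, 2 of 10 endothelial genes and 1 of 10 immune genes. Among the genes of all these lists that passed, Ncam1 and Sgms2 were at least 2-fold higher in cortical members. At least 2-fold lower were 6 of 6 proximal tubule, 3 of 7 distal convoluted tubule, 1 of 2 endothelial and 1 of 2 thin limb genes. Of 2 podocyte and parietal genes that passed, 0 were lower.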

How the data were processed

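Nuclei sorted for the Sun1-sfGFP tag were profiled with a 3' kit (PIPseq). The authors aligned reads to GRCm39 and made whole-number counts per gene and barcode with PIPseeker, and deposited those counts with its barcode calls and clusters, before the doublet and free-RNA steps that the methods describe. The submitters' notes also name Seurat 4.4.0 and bcl2fastq. Here counts of the called barcodes were used as deposited, no doublet caller was run, and 32227 genes were read in libraries of 16457300 (cortex) and 20947211 (medulla) counts. Counts were summed per class with Python 3.11.15, numpy 2.4.6, scipy 1.17.1 and pandas 2.3.3. Levels carry exact Poisson intervals, ratios conditional binomial intervals and shares Clopper-Pearson intervals, all 95%. A count of 0 has a floor of 3 counts. With 1 library per region no test between conditions was possible and no p-value is given. Genes were tested for a 2-fold ratio at a mean of 20 CPM in cortex and 100 CPM in medulla or between regions. Gene positions are those of GENCODE M39, where 31681 gene IDs matched. Barcodes with at least 10 counts of Lrp2 and Cubn and at most 2 of Slc12a1 stood for proximal tubule. The members, the 34 gene lists and the settings were chosen with earlier results of these data known. The text names, besides list genes, the 20 genes with the highest lower bound and the 15 with the lowest upper bound of the cortical ratio whose medullary ratio lay on the same side of 1, leaving out the genes of the rule, and 5 each way between regions. In all, 18 planned and 3 added alternatives were tried. The ratio intervals were tested on simulated data. Some members of the lists are counted but not reported here by name.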

Additional observations from a re-analysis of the deposited data

Results flagged for a closer look

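Nrxn3, which encodes a neurexin and is a beta gene of the study, had a ratio of macula densa to other TAL nuclei on opposite sides of 1 in the libraries, 0.261 (0.235 to 0.289) in cortex and 2.71 (2.09 to 3.45) in medulla. The difference between the libraries was not tested. In cortical other TAL nuclei Nrxn3 had 1702 CPM in the Cldn16 nuclei and 175 CPM in the Cldn10 nuclei. In medulla the levels were 466 CPM and 36.1 CPM, so both classes held less Nrxn3 there.

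Among cortical barcodes that were not called as nuclei, 61 met the rule for macula densa, with totals of 131 to 1266 counts and a median of 1058. The lowest called total was 1268. They held Robo2 at 7512 CPM, Ndst4 at 1569.9 CPM and Egf at 371 CPM. Beside 463 uncalled barcodes that met the rule for other TAL nuclei, they made up 11.6% (9.02 to 14.7). In medulla 1 uncalled barcode met the rule.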

How the results depend on the processing

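The share of macula densa among TAL nuclei moved with the rule. In cortex it was 15.7% with at least 2 counts of Nos1 and Pappa2, 9.37% with at least 5, 8.92% with Pappa2 alone, 14.6% with at most 3000 counts in all and 10.8% of all called barcodes. In medulla it was 0.751% with at least 5 counts and 0.595% with Pappa2 alone. Against 16 genes with a 2-fold ratio between cortical and medullary members, there were 42 with at least 5 counts, 51 with Pappa2 alone, 121 with the filter at 10 and 50 CPM and 9332 without a filter. The lower filter gave 715 higher genes in cortex, and 457 higher and 471 lower in medulla. Without a filter, 3608 were higher and 7908 lower in cortex, and 3417 and 14113 in medulla, where genes with few counts pass a ratio easily. With members inside and other TAL nuclei outside the main clusters, 544 were higher and 677 lower in cortex, and 235 and 306 in medulla. Of 704 ratios of 22 genes in 2 libraries and 16 settings, 579 moved by less than their counting interval, 125 moved more and 0 changed sides of 1. The settings were not alike. In the main-cluster setting 27 of 44 ratios moved by more than their counting interval and 17 by less, the most moved in any setting. The planned setting that kept nuclei with fewer than 2 counts of other cell types' markers left too few nuclei for values, because the lists hold genes that TAL cells express, so a version without those genes was added. No paired analysis was possible because each region has 1 library. Levels in medulla rest on 76 nuclei.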
